A study of Homo sapiens with 6 samples.

Results

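The genes described here are 10 chemokine ligands, CCL2, CCL5, CCL20, CXCL1, CXCL2, CXCL3, CXCL8, CXCL10, CXCL11 and CX3CL1, in U2OS cells, a human osteosarcoma (OSA) line. They were named as a list, selected on their measured shSQLE and shControl levels in these same libraries, so their differences are given as a description and support nothing further. They are 10 of the 46 chemokine ligand genes among the 19937 genes counted. Poly(A) RNA was sequenced from cells carrying an shRNA against SQLE, the squalene epoxidase of cholesterol synthesis (shSQLE, 3 libraries), and from cells carrying a non-targeting scrambled shRNA (shControl, 3 libraries). Both hairpins were delivered by lentivirus in the pGIPZ vector, and both lines were kept as stable populations after 2 weeks in puromycin at 2 µg/mL, so that each group was 1 selected population of 1 cell line. The study designed several SQLE hairpins, and which of them was sequenced is not given in the sources used here. No cytokine, interferon or other stimulus is named for either group.

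The libraries held 12212378 to 14393292 counts, and 12450 genes passed the filter on low counts and were tested. SQLE itself stood at 1349, 1867 and 1924 normalized counts in shControl and at 229, 204 and 219 in shSQLE (12.7% of control). Library 1 of shControl stood apart from the other shControl libraries, with a chi-square per degree of freedom of 53.9 and 63.6 against them. Those 2 gave 2.83 against each other. In shSQLE, library 3 gave 9.73 and 15.7 against libraries 1 and 2, which gave 3.38 against each other. The log2 fold changes of CXCL1, CXCL3 and CXCL8 and the counts of calls are given with and without shControl library 1. Some genes given below as not called were called without that library, among them BIRC3, IRF1, IL1R1, ELAVL1, CXCR5, RELA and SPARC. The fit without it called 4264 genes, against 400 with all 6 libraries. Of 7 osteoblast and mesenchymal markers, those detected included VIM, SPARC, RUNX2 and COL1A1, while ALPL and COL1A2 were at or near 0. COL1A1, a bone matrix collagen, was the 1 of them called, and it fell (log2 fold change -0.65, standard error 0.14, edgeR adjusted p = 0.0452), a call lost in 8 of the 12 alternative fits. SPARC did not pass the test (-0.28, edgeR adjusted p = 0.185), although its groups did not overlap. The 7 leukocyte markers summed to 18 to 21 counts per library in shControl and to 6 to 15 in shSQLE, with PTPRC and CD3E among those at 0 throughout. The 3 endothelial markers summed to 11 to 16 and 2 to 7 counts. Of 3 epithelial markers, EPCAM had 46 to 55 and 57 to 76 counts, and CDH1 and KRT5 at most 2. The leukocyte sum was lower mainly through ITGAM (7, 9 and 11 counts against 1, 0 and 2), while CD68 had 7, 4 and 5 against 11, 5 and 3. The leukocyte and endothelial sums were lower in shSQLE, as were the interferon-induced ligands below, EPCAM was higher, and the part of these markers in those values was not tested. In bulk RNA, fewer cells expressing a ligand and less of its mRNA per cell cannot be told apart.

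Chemokines are small secreted proteins that attract leukocytes by engaging G protein-coupled receptors on them. CXCL10 and CXCL11 are textbook interferon targets, made after STAT and IRF factors bind response elements near their promoters, and they draw activated T cells through CXCR3. CXCL1, CXCL2, CXCL3 and CXCL8 draw neutrophils through CXCR1 and CXCR2, and CCL2 draws monocytes through CCR2. These 5, with CCL20, a ligand of CCR6, are classical targets of NF-kB downstream of interleukin-1 and tumour necrosis factor. CCL5, an attractant of T cells, and CX3CL1, a membrane-anchored ligand of CX3CR1, answer to both routes. The 10 genes were therefore read in 3 groups: interferon-induced, NF-kB-induced and induced by both.

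Upstream sequence is shown for 5 members because it lets the DNA of the groups that moved apart be set side by side. RefSeq promoter windows (GRCh38.p14) matched 7 of the 10 members, and there was no entry for CCL2, CCL5 and CX3CL1. Capitals mark exact matches, on either strand, to an NF-kB motif (GGGANNTTCC), to the interferon-stimulated response element, ISRE (GAAANNGAAA), and to an AP-1 motif (TGANTCA). Positions count back from the RefSeq transcription start. The CXCL8 sequence shown ends at -51 and that of CXCL2 at -2, while those of CXCL10, CXCL11 and CXCL1 end at -1. The windows are chr4:76023498-76023727 (minus strand) for CXCL10, chr4:76036071-76036220 (minus) for CXCL11, chr4:73740419-73740518 (plus) for CXCL8, chr4:73869243-73869392 (plus) for CXCL1 and chr4:74099197-74099345 (minus) for CXCL2.
CXCL10: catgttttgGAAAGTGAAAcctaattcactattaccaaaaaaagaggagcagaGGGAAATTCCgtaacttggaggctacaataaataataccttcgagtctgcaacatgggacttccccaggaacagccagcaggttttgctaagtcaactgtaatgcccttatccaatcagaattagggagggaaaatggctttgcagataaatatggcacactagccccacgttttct
CXCL11: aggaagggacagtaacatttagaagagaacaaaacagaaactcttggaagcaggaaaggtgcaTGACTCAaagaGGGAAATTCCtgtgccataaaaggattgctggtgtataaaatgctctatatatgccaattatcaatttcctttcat
CXCL8: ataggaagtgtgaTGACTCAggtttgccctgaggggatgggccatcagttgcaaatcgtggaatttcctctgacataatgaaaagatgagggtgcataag
CXCL1: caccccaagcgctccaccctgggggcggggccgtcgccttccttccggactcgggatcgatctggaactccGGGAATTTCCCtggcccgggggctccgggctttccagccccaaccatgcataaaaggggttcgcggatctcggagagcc
CXCL2: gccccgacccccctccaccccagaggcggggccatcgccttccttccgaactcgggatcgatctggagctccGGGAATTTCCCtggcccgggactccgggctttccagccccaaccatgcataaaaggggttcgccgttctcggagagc
The ISRE was matched in 1 of the 7 members, CXCL10, at -221 to -212. The NF-kB motif was matched in 5 of the 7, and they came from both groups: CXCL10 (from -177), CXCL11 (from -76), CXCL1 and CXCL3 (from -79) and CXCL2 (from -78). In the CXCL1, CXCL2 and CXCL3 windows the marked 11 bases are a pair of overlapping matches, 1 on each strand. CXCL8 and CCL20 held no exact match to these letters in the 250 bases upstream. The CXCL8 sequence shown does hold tggaatttcc, left in lower case, which differs from the NF-kB motif in its first base only. An exact search does not mark such a near match, so its lack of a match does not mean that a site is absent. CXCL8 held an AP-1 match at -137 to -131, as did CXCL11 at -87 to -81. Over all 35116 RefSeq windows, the 250 upstream bases held the NF-kB motif in 1.40%, the ISRE in 3.02% and the AP-1 motif in 6.57%. A looser NF-kB motif (GGGNNNNNCC), which contains the first, was present in all 7 members and in 54.4% of all windows. The TATA box (TATAAA) was matched in CCL20, CXCL8 and CXCL11, and in 10.7% of all windows. The upstream 250 bases of CXCL1 and CXCL3 were 81.4% identical in a pairwise alignment, those of CXCL2 and CXCL3 73.4% and those of CXCL1 and CXCL2 70.1%, while every other pair of the 7 stood between 41.9% and 52.7%. These matches describe letters in the reference and say nothing of binding in these cells. The CXCL11 window lies inside the span of that gene in GENCODE v44 (76033682 to 76041415, minus strand). It is thus upstream of the RefSeq start but not of the GENCODE start.

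The interferon-induced ligands were far lower in shSQLE. CXCL10 (ENSG00000169245, hg38 chromosome 4, 76021118 to 76023497, minus strand) had 118, 106 and 140 normalized counts in the shControl libraries and 11.8, 19.7 and 11.3 in the shSQLE libraries. The groups were fully apart, with means of 121 ± 17.5 and 14.3 ± 4.73 (SD, n = 3 each). The log2 fold change of CXCL10 was -3.07 (standard error 0.26), an 8.43-fold lower level. CXCL11 (ENSG00000169248, 76033682 to 76041415, minus strand) lies 10184 bases from CXCL10. Its normalized counts were 292, 407 and 386 in shControl and 102, 58.2 and 52.4 in shSQLE. The groups again did not overlap, and shSQLE library 1 was the highest of its group. The means of CXCL11 were 362 ± 61.0 and 70.8 ± 27.03, with a log2 fold change of -2.35 (standard error 0.27), a 5.10-fold lower level. Both genes lie inside the span of ART3 on the opposite strand, which had 5 to 24 counts per library. Whether counting used strand is not given in the sources used here, and ART3 reads and theirs cannot be told apart if it did not. CXCL9, another CXCR3 ligand, had no count in any library.

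Of the ligands induced by both routes, 1 was expressed. CCL5 (ENSG00000271503, chromosome 17, 35871491 to 35880793, minus strand), an attractant of T cells and monocytes, had 246, 179 and 142 normalized counts in shControl and 20.6, 15.8 and 18.5 in shSQLE. The lowest shControl library was far above the highest shSQLE library, and the means were 189 ± 52.6 and 18.3 ± 2.40. Its log2 fold change of -3.36 (standard error 0.27), 10.3-fold, was the farthest from 0 among the members. CX3CL1 (chromosome 16, 57372477 to 57385044, plus strand) was hardly detected, with 3, 2 and 6 raw counts in shControl and 2, 2 and 0 in shSQLE. The ratio of its summed counts was 2.77, with an exact binomial counting interval of 0.820 to 11.9, and no difference was detectable at this depth.

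The neutrophil attractants were somewhat higher in shSQLE or stayed near control, and none of them was called in the main fit. CXCL1 (ENSG00000163739, chromosome 4, 73869393 to 73871308, plus strand) had 633, 483 and 467 normalized counts in shControl and 768, 715 and 657 in shSQLE. All shSQLE libraries were above all shControl libraries, narrowly so between shSQLE library 3 and shControl library 1. The log2 fold change of CXCL1 was 0.44 (standard error 0.15), from 528 ± 91.5 to 713 ± 55.5. CXCL3 (ENSG00000163734, 74036589 to 74038807, minus strand) had 86.6, 86.8 and 97.1 in shControl and 134, 153 and 122 in shSQLE. Its groups did not overlap either, and its log2 fold change of 0.60 (standard error 0.16), 1.51-fold, was the highest of any member. CXCL2 (ENSG00000081041, 74097040 to 74099196, minus strand) had 113, 100.4 and 80.4 against 112, 119 and 97.6, with overlapping groups and a log2 fold change of 0.16 (standard error 0.18). The canonical transcripts of CXCL1, CXCL2 and CXCL3 share between 0.533% and 5.63% of their 50-base windows exactly, so that a few reads could have been assigned to the wrong gene or dropped.

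CXCL8 (ENSG00000169429, 73740519 to 73743716, plus strand), the neutrophil attractant interleukin-8, had 1312, 2190 and 2219 normalized counts in shControl and 2324, 2228 and 2229 in shSQLE. The shSQLE libraries all lay above, but against shControl libraries 2 and 3 the gap was small, and it was library 1 of shControl that was low. The means were 1907 ± 516 and 2260 ± 54.7, with a log2 fold change of 0.24 (standard error 0.19). Without shControl library 1 the log2 fold change of CXCL8 was 0.04, while that of CXCL1 was 0.59 and that of CXCL3 0.57. The sign of CXCL8 was the same in every fit run, which is no sign of stability in groups that do not overlap. Nearly all of the size of its log2 fold change came from that library.

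CCL2 (ENSG00000108691, chromosome 17, 34255274 to 34257208, plus strand), the monocyte attractant, differed from the CXCL members of its group in sign. It had 55.4, 34.4 and 66.7 normalized counts in shControl and 35.3, 36.5 and 35.0 in shSQLE. The shSQLE libraries all fell inside the shControl range. Its log2 fold change was -0.55 (standard error 0.27), from 52.2 ± 16.4 to 35.6 ± 0.805. CCL20 (chromosome 2, 227805739 to 227817564, plus strand) was not detected beyond a few reads, at 0, 4 and 0 raw counts in shControl and 3, 0 and 1 in shSQLE. CCL20 and CX3CL1 did not pass the filter on low counts, and 3 counts, taken as the floor of detection, amounted to 0.208 to 0.246 CPM (counts scaled to a common library total of 1000000).

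Read by group, the members split. The median log2 fold change was -2.71 over the 2 interferon-induced members, -3.36 for CCL5, the 1 tested member induced by both, and 0.24 over the 5 tested NF-kB-induced members, beside -0.01 over all 12450 genes tested. Of the 8 members in the fit, 3 were among the genes that edgeR's quasi-likelihood test placed lower at an adjusted p under 0.05 and 0 among those higher, and over all genes tested those made up 2.84% and 0.369%. Counted by libraries, 3 members had every shSQLE library below every shControl library, where 12.1% of all genes did. A further 3, CXCL1, CXCL3 and CXCL8, had every shSQLE library above, where 10.0% of all genes did. Because the members were chosen on this contrast, these counts are no test of them and nothing is read from them. CXCL10, CXCL11 and CCL5 had the same sign in all 12 alternative fits, which is no sign of stability in groups that do not overlap, with log2 fold changes of -3.38 to -2.92, -2.71 to -2.16 and -3.52 to -3.13. The NF-kB-induced members ranged from 0.37 to 0.59 (CXCL1), 0.05 to 0.27 (CXCL2), 0.51 to 0.69 (CXCL3), 0.04 to 0.38 (CXCL8) and -0.78 to -0.31 (CCL2).

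**Figure D1:**
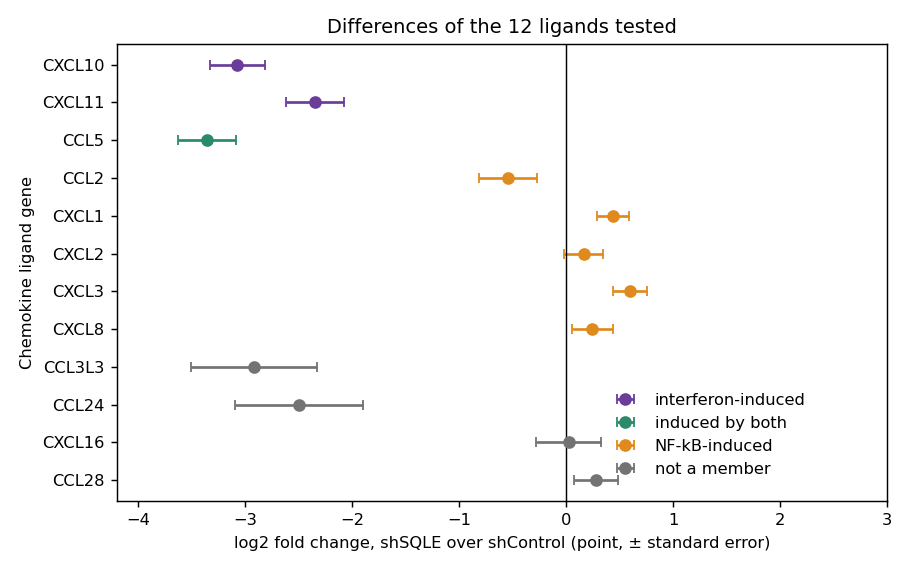
log2 fold change of shSQLE over shControl for the 12 chemokine ligands tested (points) with its standard error (bars), coloured by induction group. CXCL10, CXCL11 and CCL5 lie between -3.36 and -2.35, and the NF-kB-induced members between -0.55 and 0.60. CCL3L3 and CCL24 passed the filter on low counts through shControl, so that their points depend on the prior count.

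To compare genes with one another, counts were divided by the length of the canonical GENCODE v44 transcript (CPM per kb). In shControl, CXCL8 was the most abundant ligand at 86.1 ± 23.3, followed by CXCL1 at 33.3 ± 5.78, CXCL11 at 18.1 ± 3.06 and CCL5 at 10.8 ± 3.0. CXCL10 (7.65 ± 1.10), CXCL2 (6.51 ± 1.10), CXCL3 (6.22 ± 0.414) and CCL2 (5.22 ± 1.64) followed, and neighbours among these 4 did not differ beyond their spread. CCL20 and CX3CL1, at the floor, are left out of this order of members. In shSQLE, CXCL8 at 102 ± 2.47 and CXCL1 at 45.0 ± 3.503 again led the same 8, and the order below them changed. CXCL3 (9.41 ± 1.06) and CXCL2 (7.28 ± 0.729) came next. CXCL11 (3.55 ± 1.35) stood level with CCL2 (3.56 ± 0.0806), and CCL5 (1.04 ± 0.137) and CXCL10 (0.899 ± 0.298) were last of the 8. Outside the members, CCL28 stood at 2.42 ± 0.321 and CXCL16 at 1.42 ± 0.554 in shSQLE.

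The groups overlapped in the total but not in the shares of the induction groups. The summed level of all ligands was 163, 191 and 191 CPM per kb in shControl and 186, 177 and 169 in shSQLE. In that sum the groups overlapped only through shControl library 1, as every shSQLE library was below the other shControl libraries. The interferon-induced members made up 13.5%, 14.2% and 14.8% of that sum in shControl and 3.14%, 2.35% and 1.98% in shSQLE. CCL5 with CX3CL1 went from 6.11% ± 2.25 to 0.604% ± 0.0620. The NF-kB-induced members held 72.3%, 76.4% and 77.7% in shControl and 93.3%, 94.98% and 94.97% in shSQLE. CXCL8 alone was 36.2%, 51.8% and 52.5% of the shControl sum, with library 1 low, and 56.3% to 59.5% of the shSQLE sum. Being shares, these values rise for one group when another is lower.

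Among the 36 ligands outside the 10, 23 had no count in any library, 13 had some and 4 were tested. CCL3L3 (ENSG00000276085), a near copy of CCL3, had 22, 15 and 10 raw counts in shControl and 3, 1 and 2 in shSQLE. The ratio of its summed counts, shControl over shSQLE, was 7.88, with an exact binomial counting interval of 3.36 to 22.6. Its transcript shares 9.80% of its 50-base windows with CCL3, which had 8 counts over the shControl libraries and 1 over shSQLE. CCL3L3 passed the filter on low counts through shControl, with shSQLE at the floor, so nothing is read from its call (edgeR adjusted p = 0.0415), which was lost without shControl library 2 and without each of the shSQLE libraries. CCL24, an eosinophil attractant, had 18, 16 and 18 raw counts against 5, 0 and 4. It too passed the filter through shControl, and it was not called (edgeR adjusted p = 0.0750). The ratio of its summed counts was 5.81, with a counting interval of 2.84 to 13.4. Both intervals cover counting error only and leave out the spread between libraries, so nothing is read from them. CCL28, a mucosal chemokine, had a log2 fold change of 0.28 (standard error 0.21, edgeR adjusted p = 0.642). CXCL16, a transmembrane ligand of CXCR6, had 0.02 (standard error 0.30, edgeR adjusted p = 0.989), and its sign changed in some of the alternative fits. CCL26 (6, 6 and 1 raw counts against 0, 1 and 0) and CCL7 (2, 10 and 2 against 1, 1 and 0) were too low to be tested.

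The receptors of these ligands were largely silent. Of 23 chemokine receptor genes, 10 had no count in any library, among them CXCR1, CXCR2, CXCR3, CCR2 and CCR6, which receive ligands named above. A count of 0 allows up to 0.208 to 0.246 CPM in a library. Of 5 receptors tested, 1 fell, where 2.84% of all genes did. CXCR4, the CXCL12 receptor, had 49, 72 and 62 raw counts in shControl and 34, 32 and 30 in shSQLE, without overlap. Its log2 fold change was -0.93 (standard error 0.18, edgeR adjusted p = 0.0378), and the call was kept in 1 of the 6 fits with a library left out, the one without shControl library 1. Its ligand CXCL12 had no count. CXCR5 (0.52), the scavenger receptor ACKR3 (0.21), CCR10 (0.11) and CCRL2 (-0.04) did not pass the test. The median log2 fold change of the 5 was 0.11.

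Proteases that trim or shed chemokines came next. Of 10 tested, 3 fell and 0 rose by edgeR's quasi-likelihood test, against 2.84% and 0.369% of all genes tested. All 10 log2 fold changes were negative, as were 6420 of all 12450, with a median of -0.31, although ADAM10 and MMP14 changed sign in some alternative fits. MMP1, an interstitial collagenase, had a log2 fold change of -1.21 (standard error 0.09, edgeR adjusted p = 0.000979). MMP2, a gelatinase that truncates CCL7, had -1.27 (standard error 0.13, edgeR adjusted p = 0.00259). CTSB, the lysosomal cathepsin B, had -0.68 (standard error 0.12, edgeR adjusted p = 0.0261). DPP4, which clips the amino terminus of CXCL10 and CXCL11, was tested and not called (-0.89). Of 9 factors that bind or govern chemokine mRNAs, 1 fell, again beside 2.84% of all genes. It was ZFP36L2, of the tristetraprolin family that destabilizes AU-rich mRNAs (-0.69, standard error 0.11, edgeR adjusted p = 0.0163). The stabilizer ELAVL1 had 0.31 (edgeR adjusted p = 0.167) and the RNase ZC3H12A -0.55 (edgeR adjusted p = 0.238), and the list median was -0.07.

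Of 21 NF-kB pathway genes, all tested, 2 fell and 0 rose, against the same 2.84% and 0.369% of all genes, with a median of -0.20. TNFAIP3, the A20 inhibitor that NF-kB itself induces, went from 555 ± 114 to 206 ± 23.4 normalized counts (log2 fold change -1.43, standard error 0.19, edgeR adjusted p = 0.00711). NFKBIZ, a nuclear cofactor of NF-kB, went from 584 ± 144 to 218 ± 54.0 (-1.42, standard error 0.24, edgeR adjusted p = 0.0207). BIRC3 missed the threshold (-0.88, edgeR adjusted p = 0.0568). All 3 genes are known NF-kB targets. Their signs were opposite to those of CXCL1, CXCL2, CXCL3 and CXCL8 and the same as that of CCL2 (-0.55). None of these ligands was called in the main fit. The subunit genes NFKB1 (-0.06) and RELA (0.12) were not called.

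Of 13 tested cytokines and receptors that induce chemokines, 1 fell and 1 rose, where 2.84% of all genes fell and 0.369% rose, with a median of -0.20. IL6, the interleukin-6 gene, had 125, 194 and 156 raw counts in shControl and 12, 14 and 11 in shSQLE (log2 fold change -3.67, standard error 0.20, edgeR adjusted p = 0.000299). IL1A, which encodes interleukin-1 alpha, an inducer of CXCL8, had 613, 906 and 866 against 2052, 1853 and 1779 (1.25, standard error 0.12, edgeR adjusted p = 0.00185). In neither IL6 nor IL1A did the groups overlap. IL1B, the interleukin-1 beta gene of the same list, was not called (-0.02, standard error 0.12, edgeR adjusted p = 0.960). The receptor IL1R1 had -1.43 (standard error 0.39, edgeR adjusted p = 0.112). Interferon genes were close to the floor and are named after their values were seen. IFNL1 had 13, 10 and 9 raw counts in shControl and none in any shSQLE library. Its shControl mean of 11.0 ± 3.51 normalized counts was 3.65 times a floor of 3 counts per library. That ratio leaves out the spread of the shControl libraries. IFNB1 had 6, 4 and 2 counts against 0, 0 and 1.

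Of 18 interferon factors, all tested, 3 fell and 0 rose, against 2.84% and 0.369% of all genes tested, with a median of -0.43. IFIH1, the double-stranded RNA sensor MDA5, went from 170 ± 38.8 to 58.1 ± 5.04 normalized counts (log2 fold change -1.55, standard error 0.21, edgeR adjusted p = 0.00900). RIGI, the sensor RIG-I, went from 42.4 ± 15.1 to 9.65 ± 4.15, with 13, 5 and 11 raw counts in shSQLE (-2.13, standard error 0.41, edgeR adjusted p = 0.0335). MAVS, the adaptor of both sensors, had -0.58 (standard error 0.10, edgeR adjusted p = 0.0240). IRF1, a transcription factor that interferon induces, was not called (-0.94, edgeR adjusted p = 0.0713). The calls of MMP1, MMP2, IL6 and IL1A held with each library left out in turn. The others depended on it: TNFAIP3 lost its call without shSQLE library 1 or 2, IFIH1 without any 1 of the shSQLE libraries, and CTSB without these or shControl library 2. NFKBIZ kept its call without shControl library 1 and without shSQLE library 1, while ZFP36L2, RIGI and MAVS kept theirs without shControl library 1 alone.

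**Figure D2:**
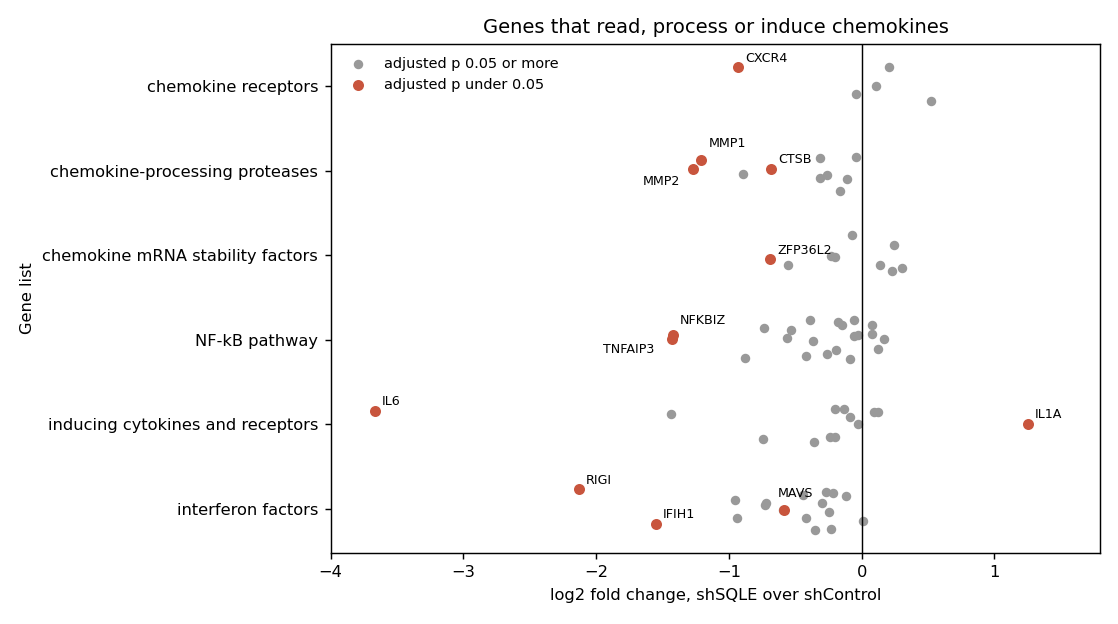
log2 fold change of shSQLE over shControl for the tested genes of 6 lists, 1 point per gene, with vertical scatter for legibility; red points had an edgeR adjusted p under 0.05. IL6 at -3.67 and IL1A at 1.25 mark the extremes, and 17 of the 18 interferon factors lie below 0, as do 6420 of all 12450 genes tested.

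The expression pattern over the 6 libraries was then compared with that of 9873 other genes of at least 100 mean normalized counts, as a description over 2 groups of 3. For CXCL11, the highest Pearson correlations of log2 CPM were with HS3ST3A1 (r = 0.998), ELFN2 (0.998) and GRAMD4 (0.996). For CXCL8 they were with PARPBP (0.999), CCNY (0.998) and NKRF (0.997). CXCL8 had 1312 normalized counts in shControl library 1 and 2190 or more in every other library. Its correlations therefore rest largely on that library and not on the contrast between groups. For CCL5 they were with SURF4 (0.998), CDCP1 (0.997) and BMF (0.996). The points share their libraries and the contrast between groups, and no p is given.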

How the data were processed

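mRNA of 3 shSQLE and 3 shControl libraries was compared, grouped by the genotype label. The submitters' processing notes name fastp 0.20.0, STAR 2.7.9a, featureCounts 2.0 and hg38, and the reads were paired and 151 bp long. The authors deposited unnormalized counts for 19937 genes, of which 32 matched no symbol and 3942 had no count. The annotation release, strand use and treatment of multi-mapping reads are not given in the sources used here. Separate cultures are not stated (the paper speaks of technical replicates), so SDs and p-values measure the spread between these libraries.

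Counts were fitted in R 4.3.3 with edgeR 4.0.16 (TMM, filterByExpr, quasi-likelihood test, condition only, Benjamini-Hochberg over 12450 genes, threshold 0.05). Normalized counts are scaled to the mean effective library size. DESeq2 1.42.0, other scalings and filters, a replicate block and leaving out each library were alternatives. Fits were tested on simulated data. Positions and lengths came from GENCODE v44 and upstream sequences from RefSeq. Low-count ratios carry 95% exact binomial intervals. Intervals and the floor of 3 counts cover counting error only.

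The members, gene lists and the rule for named genes were chosen with earlier results of these data known. The rule names the members, other ligands with at least 10 counts in all, receptors called or with a mean of at least 10 normalized counts, the called genes of each list with its 3 smallest p-values, and the 3 genes most correlated with the leading member of each group. Genes outside the rule (DPP4, ADAM10, MMP14, NFKB1, RELA, IRF1, IL1B, IFNL1, IFNB1, CCL3, and CXCL9, CXCL12, CXCR1, CXCR2, CXCR3, CCR2 and CCR6 at 0 counts) were added after their values were seen. Some genes of the lists are not reported here.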

Additional observations from a re-analysis of the deposited data

How the results depend on the processing

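No log2 fold change of a member changed sign under the 12 alternatives. This describes these libraries and is no test of genes chosen on them. Counts of called genes moved more. Over all genes, 400 calls (354 lower, 46 higher) became 730 with DESeq2 (568 lower, 162 higher), and 109 to 4264 when 1 library was left out, the highest without shControl library 1. Ligand calls were 4 of 12 tested, beside 400 of all 12450 genes, and 3 of the 4 were members chosen on this contrast. With 1 library left out they ranged from 3 to 7. The 7 arose without shControl library 1, where 4264 of all 12570 genes tested were called, and added CXCL1, CXCL3 and CCL24. CXCL3 and CCL24 also passed with DESeq2. Under the replicate block, 396 genes (362 lower, 34 higher) and 5 ligands were called, CCL24 being the addition, and the 1 receptor call (CXCR4) was lost, leaving 0. Under it MAVS lost its call and IRF1 gained one, leaving 3 interferon factors, and the marker COL1A1 lost its call. The counts of the other 4 lists did not change. Same-numbered libraries correlated at 0.14, -0.43 and 0.54 in their deviations from the group means, and not every library correlated best with its own number, so the numbers were not taken to pair them. With 1 library left out, calls ranged from 0 to 2 among receptors, 2 to 4 among proteases, 0 to 4 among mRNA stability factors, 0 to 9 among NF-kB pathway genes, 2 to 5 among inducing cytokines and receptors, and 0 to 11 among interferon factors, each highest without shControl library 1. The fit without that library called 4264 of all 12570 genes tested. With DESeq2, calls were 4 among NF-kB pathway genes, 4 among inducing cytokines and receptors and 6 among interferon factors, beside 730 of 12450 genes. Scaling by library size alone gave 5 interferon factors. Dropping a library also lowers the number of samples, and no further cause was tested. Depth limits CCL20, CX3CL1 and the interferon genes, which lie at or near the floor.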
